A study of Mus musculus with 6 samples.

Results

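Rab GTPases and SNARE proteins carry out membrane traffic, and their transcripts were examined here in mouse alveolar type II (AT2) cells sorted after lung injury. The genes were chosen by symbol, as Rab, syntaxin (Stx) and VAMP genes with a number and at most a letter after the family name (for VAMP the number alone) and Snap23, Snap25, Snap29 and Snap47, with at least 10 counts summed over the 6 libraries. Of 23337 gene symbols in the files, 82 matched and 77 had enough counts, namely 54 Rab genes, 14 syntaxins, 6 VAMPs and 3 members of the SNAP-25 family. Vamp7 was among the 5 that did not, and was listed at 0 in all 6 libraries. Its symbol also had no match in the annotation used for exon lengths. Whether its reads were counted at all was not tested, so its expression cannot be judged here. Of the 77 members, 75 passed the filter on low counts that precedes the test, and Rab3b and Rab39b did not.

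Each Rab is a molecular switch that, when bound to GTP, recruits effectors to the surface of a particular compartment, where they move, tether or dock vesicles. SNARE proteins on the vesicle (VAMPs) and on the target membrane (syntaxins and SNAP-25 relatives) then zip together and drive fusion. AT2 cells depend on this machinery because they store surfactant in lamellar bodies, which are lysosome-related organelles, and release it by regulated exocytosis.

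The mutant group had the genotype SpC-CreER/Dlk1flox/ROSA-Tomato, in which tamoxifen-inducible Cre driven by the surfactant protein C promoter deletes floxed Dlk1, a Delta-like gene of the Notch pathway, in AT2 cells and switches on a red reporter. The wild-type group had the genotype SpC-CreER/ROSA-Tomato and so carried the same Cre and reporter without the floxed gene. Both groups were Tomato-positive lung epithelial cells taken 10 days after acute lung injury with Pseudomonas aeruginosa, with 3 libraries each. Strain and age are not stated in the labels, nor is it stated that the libraries came from different animals. The p-values therefore refer to variation among these libraries, which may be technical in part. Wild type 2 differed from the others in sex-linked transcripts (values below), so it did not share 1 source with them. One label also mentions a period of culture before RNA isolation, and whether it applied to these libraries is not settled.

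Library totals were 23718958 to 30695994 counts in the mutants and 22511461 to 25332204 counts in the wild types. Dlk1 had at most 2 counts in any library, so the targeted gene could not check the labels. AT2 identity was clear in all 6, with 10 AT2 markers (among them Sftpc, Abca3 and Lamp3) summing to 129200 to 142200 CPM (counts scaled to a library total of 1e6) in the mutants and 138000 to 160000 CPM in the wild types. Mutant 1 stood apart. All 10 leukocyte markers were higher there than in each other library (the 9 other than Lcp1 summed to 561 CPM, against 8.13 to 32.8 CPM in the other 5, while Lcp1 had 401 CPM, against 288 to 397 CPM), as were all 6 club cell markers (8873 CPM against 486 to 794 CPM), all 6 fibroblast markers (213 CPM against 3.37 to 6.82 CPM) and all 6 endothelial markers (115 CPM against 2.65 to 7.31 CPM). Of 8 macrophage markers, 7 were highest in mutant 1 (429.6 CPM against 27.2 to 83.1 CPM). Wild type 2 held Xist at 184.6 CPM, where the others had at most 2.93 CPM. The Y-linked Ddx3y was lowest there, at 2.88 CPM. Wild type 1 had 49.8 CPM of it, wild type 3 had 68.8 CPM, and each mutant had at least 70.5 CPM. By these transcripts wild type 2 was female-type and the others male-type, so sex was not balanced between the groups. In such bulk samples, fewer cells of a type and less RNA per cell cannot be told apart.

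Levels below are CPM scaled by the TMM method (trimmed mean of M-values, a correction for library composition). To compare genes with each other, levels were divided by the length of all annotated exons. By this measure Vamp8, the vesicle SNARE of granule release in exocrine and other epithelial cells, ranked first of the 76 members with a length, at 130.2 CPM per kb in the mutants and 137 CPM per kb in the wild types. Rab1b, which controls transport from the endoplasmic reticulum to the Golgi, came next at 95.2 and 91.9 CPM per kb. Rab27a, which docks secretory granules and lysosome-related organelles at the plasma membrane, came after it at 67.4 CPM per kb in the mutants and 87.1 CPM per kb in the wild types. The late endosomal Rab9, the endosome-to-Golgi regulator Rab14, the early endosomal Rab5c and the endosomal syntaxin Stx12 took ranks 4, 5, 6 and 7.

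**Figure D1:**
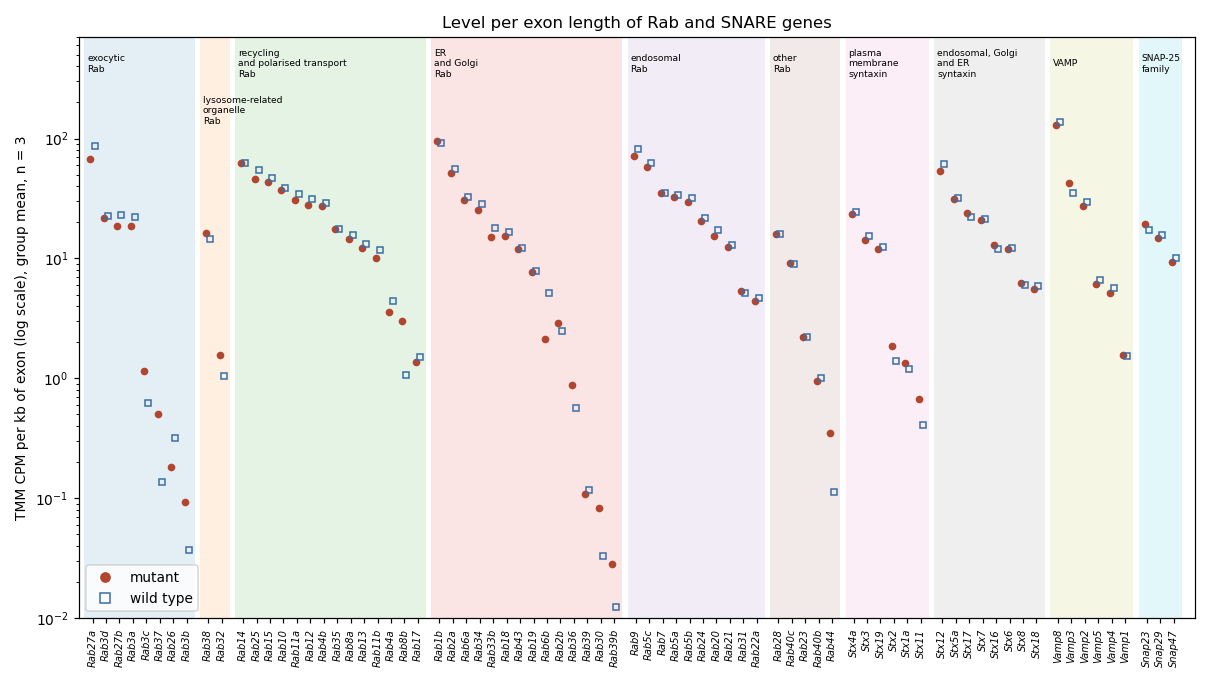
Level of 76 Rab and SNARE genes per kb of annotated exon (TMM CPM per kb, log axis), as the mean of 3 mutant libraries (filled circles) and of 3 wild-type libraries (open squares), in order of level within each role. Vamp8, Rab1b and Rab27a stand highest, and the exocytic Rabs run from Rab27a down to Rab3b at under 0.1 CPM per kb in both groups.

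Of all 77 members, 55 had at least 10 CPM in every library and 6 averaged under 1 CPM. Summed over the 77 members, the level was 4006, 4701 and 4636 CPM in mutants 1, 2 and 3, against 4595, 4746 and 4781 CPM in wild types 1, 2 and 3, so mutant 1 was the lowest and the others lay close together. Most members varied little: in 50 the highest library was less than 1.5 times the lowest. Among the 57 tested members that averaged at least 10 CPM, the median within-group SD was 0.13 on the log2 scale, beside 0.14 for the 8627 tested genes at that level. In the comparison of mutant with wild type, edgeR's quasi-likelihood test called no member at 5% after Benjamini-Hochberg adjustment. It called none of the 12899 tested genes (0%). An unadjusted edgeR p under 0.05 was reached by 4 members (2 higher, 2 lower), or 5.33% of 75, where 6.58% of all tested genes reached it (3.69% higher, 2.89% lower). DESeq2 called 0 members and 46 of 15324 genes (0.3%). limma-voom with quality weights called 0 members and 0 genes (0%), with 6 members and 10% of all genes under an unadjusted p of 0.05.

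The log2 fold change (mutant minus wild type) was positive in 25 and negative in 50 of the 75 tested members (33.3% positive, against 51.1% of all tested genes), and its median was -0.07, against 0.0048 over all genes. Mutant 1 was the lowest of the 6 libraries in 34 members (45.3%, against 21.2% of all tested genes). Without mutant 1, 31 of 74 members were positive (41.9%, against 48.1% of all tested genes) and the median was -0.02, while 7 of the 74 had an unadjusted edgeR p under 0.05, where 5.85% of all tested genes did. The high markers of other cell types in mutant 1, given above, go with this shift, and their part in it was not tested. In 52 of the 75 members the 95% interval of the fold change lay within 1.5-fold either way (69.3%, against 58.3% of all tested genes), and in 59 within 2-fold.

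**Figure D2:**
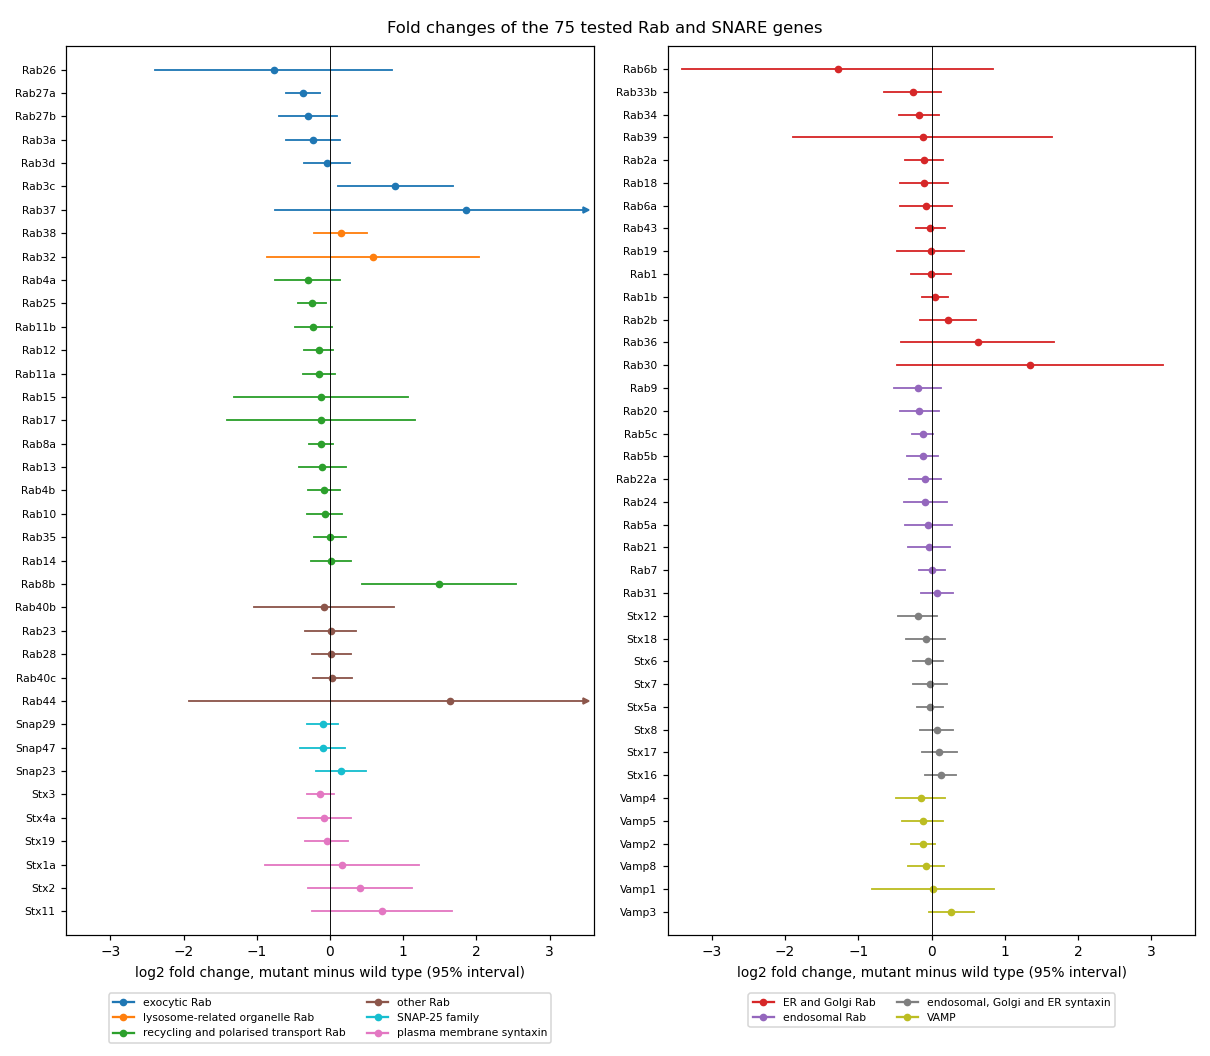
Log2 fold change (mutant minus wild type, edgeR, 3 libraries per group) of the 75 tested Rab and SNARE genes with 95% intervals, coloured by role and sorted within role. Arrowheads mark intervals that run past the axis. Only Rab27a and Rab25 (lower) and Rab3c and Rab8b (higher) have intervals clear of 0, and none of the 75 passed after adjustment over all genes.

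The 3 mutants and the 3 wild types had separate ranges in 10 members (13.3%, against 11.7% of all tested genes). The mutants were all lower for Rab27a, Rab25, Rab4a, Rab5c, Rab8a, Stx3 and Vamp2 (7 members, 9.33%, against 6.43% of all genes) and all higher for Rab8b, Rab3c and Rab2b (3 members, 4%, against 5.23% of all genes).

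Of the 7 tested exocytic Rabs, 2 were positive, with a median log2 fold change of -0.24; without mutant 1, 3 were positive and the median was -0.12. Rab27a had 198, 234 and 209 CPM in mutants 1, 2 and 3, against 264, 303 and 260.2 CPM in wild types 1, 2 and 3. All 3 mutants lay below all 3 wild types. It averaged 213 ± 18.4 CPM over the mutants and 276 ± 23.8 CPM over the wild types (SD, 3 libraries each), with a log2 fold change of -0.37 ± 0.10 (SE, 95% interval -0.61 to -0.14). Without a block it had the smallest unadjusted edgeR p of the members (0.00727) and an adjusted p of 0.737. With the replicate number as a block the unadjusted edgeR p was 0.00305, and that of Rab8b was smaller (given below). DESeq2 gave Rab27a an adjusted p of 0.108. Leaving out mutant 1, the lowest library, moved the log2 fold change to -0.32. Without wild type 2, the highest, it was -0.30, and the least negative value of Rab27a over the other alternatives was -0.24. Its paralog Rab27b, which acts in the same docking step in several secretory cells, had 111, 175 and 135 CPM in mutants 1, 2 and 3, against 176, 187 and 154 CPM in wild types 1, 2 and 3. Here the groups overlapped, since mutant 2 lay above wild type 3, although each mutant was below the wild type of its own number. The log2 fold change was -0.30 (-0.70 to 0.10), or -0.15 without mutant 1, -0.49 without mutant 2 and, at the least negative over the other alternatives, -0.08. Its unadjusted edgeR p was 0.119, and 0.0448 with the replicate number as a block, where the adjusted p was 0.717.

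Rab27 proteins act through effectors of the synaptotagmin-like family, which were in the list of Rab regulators. Sytl2, one of these effectors, had 48.7, 56.6 and 50.8 CPM in mutants 1, 2 and 3, against 71.98, 77.8 and 68.6 CPM in wild types 1, 2 and 3. The groups did not overlap. Sytl2 averaged 52.04 ± 4.13 CPM over the mutants and 72.8 ± 4.68 CPM over the wild types (SD, 3 libraries each), or -0.48 ± 0.09 (SE) as a log2 fold change, with an unadjusted edgeR p of 0.00101 and an adjusted p of 0.737. With all 6 libraries DESeq2 gave it an adjusted p of 0.0178, which passes, and with mutant 1 left out 0.22, which does not; there the log2 fold change was -0.43 in DESeq2 and -0.44 in edgeR. The other effectors of this kind in the list overlapped between groups. Mlph averaged 106 ± 10.4 CPM over the mutants and 118 ± 6.93 CPM over the wild types (SD, 3 libraries each). Exph5 averaged 83.1 ± 9.54 CPM over the mutants and 91.05 ± 2.06 CPM over the wild types (SD, 3 libraries each). Sytl4 averaged 11.6 ± 2.02 CPM over the mutants and 11.6 ± 1.68 CPM over the wild types (SD, 3 libraries each). Sytl1 and Sytl5 had log2 fold changes of -0.06 ± 0.28 and 0.25 ± 0.34 (SE). Sytl3, at 2.68, 0 and 0.423 CPM in the mutants against 0.274, 0.401 and 1.06 CPM in the wild types, had 0.85 ± 1.33 (SE), which turned to -1.38 without mutant 1. Unc13d, a Munc13 priming factor that binds Rab27, was higher in the mutants without overlap, at 89.05, 83.3 and 91.4 CPM in the mutants against 83.2, 70.05 and 78.5 CPM in the wild types. Mutant 2 exceeded wild type 1 only slightly, and the log2 fold change was 0.19 ± 0.09 (SE, edgeR adjusted p = 0.739).

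**Figure D3:**
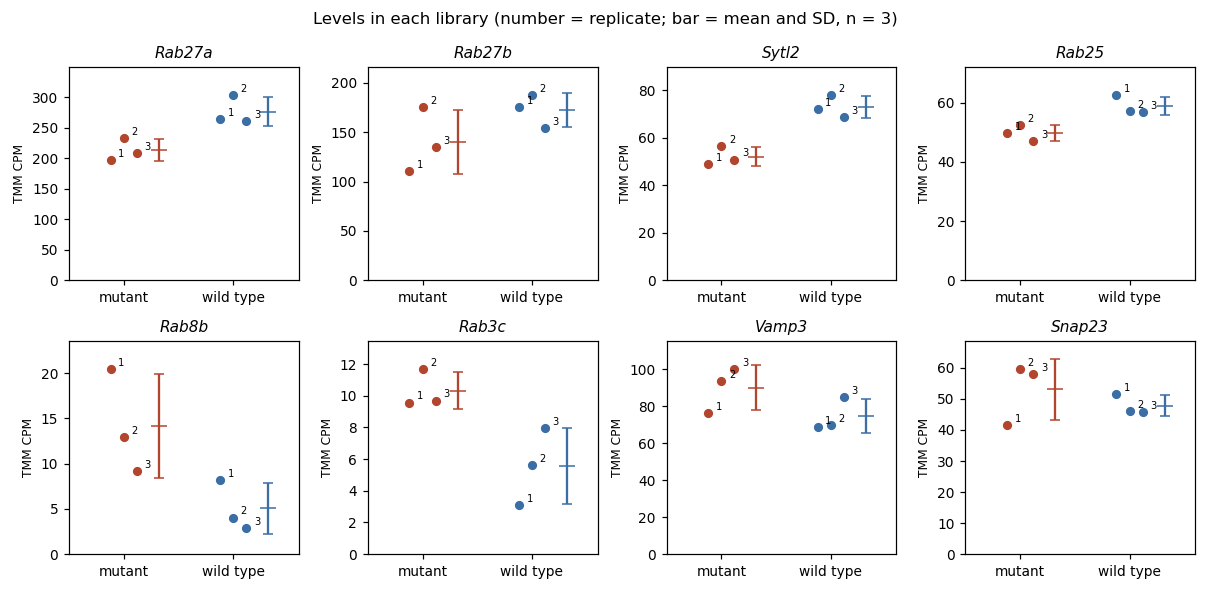
TMM CPM in each of the 3 mutant (left) and 3 wild-type (right) libraries for 8 genes, numbered by replicate, with the mean and SD beside them. Mutant libraries of Rab27a, Sytl2 and Rab25 all lie below the wild types, those of Rab8b and Rab3c all above, and those of Rab27b, Vamp3 and Snap23 overlap them.

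Rab3 proteins also act at the last steps before exocytosis, and Rab3d is the form best known from exocrine granules and lamellar bodies. Rab3d had 80.9, 99.99 and 79.6 CPM in mutants 1, 2 and 3, against 103, 87.4 and 77.7 CPM in wild types 1, 2 and 3. The groups overlapped widely, with a log2 fold change of -0.04 (-0.35 to 0.27). Rab3a, the main form of neurons, stood at 28.2, 32.99 and 39.8 CPM in the mutants against 37.8, 35.2 and 45.9 CPM in the wild types, also overlapping. Rab3c was far lower in level, at 9.57, 11.7 and 9.70 CPM in mutants 1, 2 and 3, against 3.11, 5.61 and 7.94 CPM in wild types 1, 2 and 3. The mutants were close to each other and all above the wild types, of which wild type 1 was lowest. Rab3c averaged 10.3 ± 1.18 CPM over the mutants and 5.55 ± 2.42 CPM over the wild types (SD, 3 libraries each), or 0.89 ± 0.33 (SE) as a log2 fold change, with an unadjusted edgeR p of 0.0306 and an adjusted p of 0.737. Without mutant 1 the log2 fold change was 0.94. It ran from 0.61 without wild type 1 to 1.24 without wild type 3. The unadjusted edgeR p was 0.0868 without mutant 2 and 0.0765 without wild type 2. Per exon length it reached 1.16 CPM per kb in the mutants and 0.624 CPM per kb in the wild types, where Rab3d reached 21.9 and 22.6 CPM per kb.

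Rab26 and Rab37, both linked to secretory granules, and Rab3b were near the limit of detection. Mutants 1, 2 and 3 gave 20, 3 and 18 counts of Rab26, against 21, 12 and 23 in the wild types. Rab37 had 108, 18 and 5 counts in the mutants and 14, 2 and 11 counts in the wild types, so mutant 1 alone was high. Rab3b had at most 15 counts in any library.

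Lysosome-related organelles are served by Rab38 and its close relative Rab32, and loss of Rab38 in mice and rats disturbs lamellar bodies. Rab38 had 21.7, 25.1 and 29.7 CPM in mutants 1, 2 and 3, against 19.3, 24.1 and 25.6 CPM in wild types 1, 2 and 3. Mutant 3 was highest and wild type 1 lowest, the groups overlapped, and the log2 fold change was 0.15 (-0.22 to 0.51). It ran from 0.02 without mutant 3 and 0.03 without wild type 1 to 0.25 without mutant 1. Rab32 had 6.46, 1.33 and 2.40 CPM in mutants 1, 2 and 3, against 2.56, 2.84 and 1.38 CPM in wild types 1, 2 and 3. Mutant 1 stood alone, and the log2 fold change of 0.59 turned to -0.27 without it. Leukocytes and other cells also express Rab32, and the leukocyte markers were high in the same library; their part in this value was not tested.

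The promoters of the members with intervals clear of 0 are shown as the 250 bases before each RefSeq transcription start, written in the direction of transcription, on build GRCm38.p6. Rab25 is left out because 21 bases of its window lie in annotated exons, which may be its own, and Rab27a has a pair of starts. Capitals mark matches on either strand. The letters CACGTG were searched as the E-box. For the GC box of Sp1-type factors they were GGGCGG, for the box named after its letters CCAAT, and for the TATA box TATAAA. No match overlapped another in these windows.
Rab27a, first start, chr9:73044560-73044809, plus strand: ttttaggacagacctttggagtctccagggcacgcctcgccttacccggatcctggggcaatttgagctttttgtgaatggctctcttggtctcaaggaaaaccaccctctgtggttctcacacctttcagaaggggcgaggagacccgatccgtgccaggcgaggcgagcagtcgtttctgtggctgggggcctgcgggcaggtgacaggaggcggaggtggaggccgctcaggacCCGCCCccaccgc
Rab27a, second start, chr9:73063898-73064147, plus strand: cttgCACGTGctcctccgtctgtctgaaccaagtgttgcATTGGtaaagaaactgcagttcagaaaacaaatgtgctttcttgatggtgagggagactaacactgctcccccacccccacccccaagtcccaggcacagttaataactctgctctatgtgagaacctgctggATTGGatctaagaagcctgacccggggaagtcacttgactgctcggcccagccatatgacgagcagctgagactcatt
Rab3c, chr13:110280207-110280456, minus strand: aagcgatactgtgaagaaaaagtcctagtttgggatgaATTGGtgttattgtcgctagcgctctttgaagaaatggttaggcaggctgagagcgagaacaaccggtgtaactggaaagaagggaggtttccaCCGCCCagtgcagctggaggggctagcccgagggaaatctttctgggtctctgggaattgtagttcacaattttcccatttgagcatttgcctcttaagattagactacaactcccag
Rab8b, chr9:66919706-66919955, minus strand: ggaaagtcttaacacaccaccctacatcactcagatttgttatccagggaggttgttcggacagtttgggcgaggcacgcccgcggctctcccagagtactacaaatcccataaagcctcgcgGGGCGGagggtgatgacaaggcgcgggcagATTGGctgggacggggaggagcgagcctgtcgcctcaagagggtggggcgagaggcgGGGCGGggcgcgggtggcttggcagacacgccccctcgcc
The first Rab27a window held 1 GC box. Its second window held 1 E-box and 2 CCAAT boxes. That of Rab3c held 1 GC box and 1 CCAAT box, and that of Rab8b 2 GC boxes and 1 CCAAT box. Over the 32851 windows of this length in the RefSeq table, 6.02% held the E-box, 32.7% the GC box, 33.8% the CCAAT box and 12.4% the TATA box. Over the 83 windows of genes matching the symbol patterns, the shares were 8.43%, 62.7%, 42.2% and 6.02% in the same order. These matches describe letters in the sequence only, and which start was used in these cells was not measured.

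Recycling and polarised transport Rabs came next: 2 of 14 were positive, and their median was -0.12 on the log2 scale. Without mutant 1, 4 of 14 were positive and the median was -0.09. Rab25, the epithelial member of the Rab11 group that serves apical recycling, had 49.9, 52.3 and 47 CPM in mutants 1, 2 and 3, against 62.5, 57.2 and 56.97 CPM in wild types 1, 2 and 3. All mutants lay below all wild types. The difference was -0.24 ± 0.08 (SE) on the log2 scale, with an unadjusted edgeR p of 0.0198 and an adjusted p of 0.737. The value was -0.25 without mutant 1 and -0.20 without wild type 1, where the unadjusted edgeR p was 0.0615. Its relatives Rab11a and Rab11b, general Rabs of the recycling endosome, overlapped between groups. Rab11a stood at 65.3, 76.1 and 75.6 CPM in the mutants against 75.2, 80.2 and 85.1 CPM in the wild types, a log2 fold change of -0.15 (-0.36 to 0.07), or -0.08 without mutant 1. Rab11b stood at 60.6, 53.6 and 70.6 CPM in the mutants against 68.9, 74.1 and 73.2 CPM in the wild types, a log2 fold change of -0.23 (-0.48 to 0.03), or -0.14 without mutant 2.

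Rab8a and Rab8b, paralogs in transport to the plasma membrane and the cilium, differed in pattern. Rab8b had 20.4, 12.9 and 9.13 CPM in mutants 1, 2 and 3, against 8.23, 4.04 and 2.89 CPM in wild types 1, 2 and 3. The mutants were all above the wild types, but mutant 3 was close to wild type 1, and mutant 1 was highest. Rab8b averaged 14.2 ± 5.75 CPM over the mutants and 5.05 ± 2.81 CPM over the wild types (SD, 3 libraries each), the largest log2 fold change among the members that reached an unadjusted p under 0.05, at 1.49 ± 0.45 (SE), with an unadjusted edgeR p of 0.0122 and an adjusted p of 0.737. Without mutant 1, which also held the high leukocyte and stromal markers, it was 1.13. The part of those markers in the value with all libraries was not tested. With the replicate number as a block the unadjusted edgeR p of Rab8b was 0.000154, the smallest of the members, and the adjusted p was 0.541. Rab8a, which was the more abundant in every library, stood at 64.3, 67.5 and 67.5 CPM in the mutants against 74.3, 69.5 and 72.3 CPM in the wild types, without overlap and lower in the mutants.

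Rab14 had 163, 216 and 199 CPM in mutants 1, 2 and 3, against 176, 195 and 202 CPM in wild types 1, 2 and 3. The groups overlapped, and the log2 fold change was 0.01 (-0.26 to 0.29). Rab12, which acts between recycling endosomes and lysosomes, stood at 56.4, 57.1 and 60.4 CPM in the mutants against 60.1, 69.6 and 63.6 CPM in the wild types, a log2 fold change of -0.15 (-0.35 to 0.04), or -0.10 without wild type 2. Rab10, a Rab of basolateral and insulin-responsive traffic, stood at 111, 142 and 136 CPM in the mutants against 135, 135 and 139 CPM in the wild types. Rab13, Rab35, Rab4a and Rab4b averaged between 6.26 and 49.6 CPM in both groups.

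Some members varied between libraries in ways that crossed the groups. Rab15, an endosomal recycling Rab, had 95.8, 90.6 and 282 CPM in mutants 1, 2 and 3, against 119, 128 and 263 CPM in wild types 1, 2 and 3. Mutant 3 and wild type 3 were both high, and the other 4 libraries were all below 130 CPM. Its log2 fold change was -0.12 (-1.31 to 1.06), or -0.23 with the replicate number as a block. Rab17, an epithelial Rab of apical transport, had 3.08, 3.42 and 1.69 CPM in mutants 1, 2 and 3, against 3.66, 4.17 and 1.10 CPM in wild types 1, 2 and 3, with the lowest levels in the same 2 libraries, at 48 and 27 counts. Rab6b, the tissue-restricted paralog of the Golgi Rab6a, had 23.4, 4.62 and 3.91 CPM in mutants 1, 2 and 3, against 6.26, 19.2 and 52.6 CPM in wild types 1, 2 and 3. Its highest library was 13.5 times its lowest, wild type 3 and mutant 3, and its log2 fold change of -1.28 (-3.40 to 0.84) moved to -2.61 without mutant 1 (edgeR adjusted p = 0.819) and to -0.26 without wild type 3. Rab6a stood at 83.2, 128 and 104 CPM in the mutants against 104, 114 and 115 CPM in the wild types. Rab44, a large Rab known from mast cells and granulocyte precursors, gave 154, 0 and 8 counts in the mutants, against 21, 6 and 10 in the wild types. Mutant 1 was again alone. The leukocyte markers were high in the same library, and their part in this value was not tested. Rab15, Rab6b, Rab17, Rab37 and Rab44 were singled out for such variation after their values were seen.

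**Figure D4:**
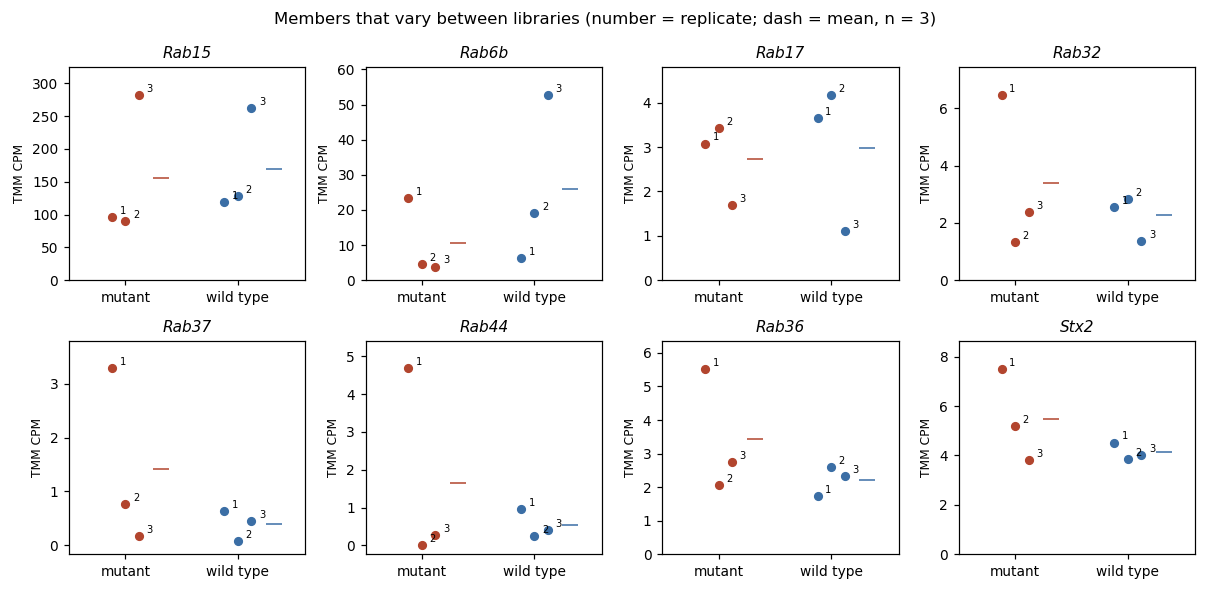
TMM CPM in each of the 3 mutant (left) and 3 wild-type (right) libraries for 8 members with wide spread, numbered by replicate, with the mean as a dash. Replicate 3 of both groups is high for Rab15 and low for Rab17, mutant 1 alone is high for Rab32, Rab37, Rab44 and Rab36, and Rab6b ranges from 3.91 CPM in mutant 3 to 52.6 CPM in wild type 3.

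Among Rabs of the early secretory pathway, 4 of 14 tested members were positive, or 6 of 13 without mutant 1. Their log2 fold changes ran from -1.28 (Rab6b) to 1.35 (Rab30), with a median of -0.04, and 8 of the 14 had intervals within 1.5-fold. Rab1 and Rab1b, which share the step from endoplasmic reticulum to Golgi, stood at 162, 221 and 196 CPM in the mutants against 191, 195 and 195 CPM in the wild types for Rab1, and at 184, 203 and 186 CPM in the mutants against 189.8, 182 and 182 CPM in the wild types for Rab1b. Rab2a, of Golgi and lysosomal transport, stood at 94.6, 123 and 113 CPM in the mutants against 110.1, 125 and 120 CPM in the wild types. In all 3 the groups overlapped. Rab18, of lipid droplets and the endoplasmic reticulum, averaged 101 ± 18.2 CPM over the mutants and 108 ± 8.06 CPM over the wild types (SD, 3 libraries each). Rab2b had 8.35, 8.90 and 8.15 CPM in the mutants against 6.76, 7.69 and 7.25 CPM in the wild types, without overlap, and 2254 of its 2906 annotated exon bases are shared with genes on the opposite strand; since the counting is not stated to use strand, their reads cannot be told apart. Rab30, a Golgi Rab, had 50, 5 and 18 counts in the mutants and 9, 6 and 7 counts in the wild types, with a log2 fold change of 1.35 (-0.47 to 3.16). Mutant 1, with its high markers of other cell types, was the highest, and the part of those markers in the value was not tested. Without mutant 1 Rab30 did not pass edgeR's filter, and DESeq2 gave 0.46.

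All 10 endosomal Rabs had intervals within 1.5-fold. Rab5c had 113, 113 and 114 CPM in mutants 1, 2 and 3, against 126, 122 and 121 CPM in wild types 1, 2 and 3. The mutants were nearly equal to each other and all below the wild types, with a log2 fold change of -0.12 ± 0.06 (SE, edgeR adjusted p = 0.739). Rab5a, its paralog in early endosome fusion, had 62.3, 86.4 and 82.97 CPM in mutants 1, 2 and 3, against 72.4, 83.6 and 82.9 CPM in wild types 1, 2 and 3. Mutant 1 was the lowest, the groups overlapped, and the log2 fold change was -0.05 (-0.36 to 0.27), or 0.09 without mutant 1. Rab7, the Rab of late endosomes and lysosomes, had 87.6, 98.5 and 87.3 CPM in the mutants against 89.5, 91.7 and 91.9 CPM in the wild types, with a log2 fold change of 0.00 (-0.18 to 0.18), among the narrowest intervals of the list. Rab9 averaged 103 ± 19.2 CPM over the mutants and 117 ± 7.90 CPM over the wild types (SD, 3 libraries each).

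Among the SNAREs, 9 of 23 were positive (39.1%, against 51.1% of all tested genes), with a median log2 fold change of -0.05. Without mutant 1, 10 of 23 were positive and the median was -0.0027. Vamp8 had 261, 329 and 313 CPM in mutants 1, 2 and 3, against 323, 319.5 and 309 CPM in wild types 1, 2 and 3. Mutant 1 was the lowest and mutant 2 the highest, and the log2 fold change was -0.08 (-0.32 to 0.16). Vamp2, the synaptic-type vesicle SNARE also used in regulated secretion of other cells, had 74.4, 81.4 and 75.5 CPM in mutants 1, 2 and 3, against 81.9, 84.3 and 83.6 CPM in wild types 1, 2 and 3. The groups did not overlap, though wild type 1 exceeded mutant 2 only slightly, and the log2 fold change was -0.11 (-0.28 to 0.05). Vamp3, the vesicle SNARE of recycling endosomes, had 76.5, 93.5 and 100.1 CPM in mutants 1, 2 and 3, against 68.9, 69.97 and 85.1 CPM in wild types 1, 2 and 3. Mutants 2 and 3 lay above all wild types and mutant 1 did not, and the log2 fold change was 0.27 ± 0.13 (SE, edgeR adjusted p = 0.739). Without mutant 1 it was 0.38 (edgeR adjusted p = 0.819). The unadjusted edgeR p of Vamp3 was 0.0746, and 0.019 with the replicate number as a block, where the adjusted p was 0.696.

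Target-membrane SNAREs of the plasma membrane gave 3 positive and 3 negative members. Stx3, the apical syntaxin of epithelia, had 59.8, 67.8 and 64.04 CPM in mutants 1, 2 and 3, against 68.05, 70.4 and 71.3 CPM in wild types 1, 2 and 3. The mutants were all below the wild types, the gap between mutant 2 and wild type 1 was small, and the log2 fold change was -0.13 (-0.31 to 0.05), or -0.08 without mutant 1. Stx4a, the basolateral syntaxin, had 39.2, 32.95 and 35.6 CPM in the mutants against 46.8, 34.5 and 32.5 CPM in the wild types, a log2 fold change of -0.08 (-0.44 to 0.29) with wild type 1 above the rest. Stx2 and Snap23, which were needed for surfactant secretion in work on rat AT2 cells, differed in level. Stx2 had 7.50, 5.18 and 3.81 CPM in the mutants against 4.52, 3.85 and 4.03 CPM in the wild types, with mutant 1 highest and a log2 fold change of 0.41 that was 0.12 without it. Snap23 had 41.7, 59.6 and 58.01 CPM in mutants 1, 2 and 3, against 51.6, 45.98 and 45.8 CPM in wild types 1, 2 and 3. Mutant 1 was the lowest of the 6 libraries while mutants 2 and 3 were the highest, so the log2 fold change of 0.15 (-0.19 to 0.49) became 0.30 without mutant 1 (edgeR adjusted p = 0.819), 0.06 without mutant 2 and 0.08 without mutant 3. Stx11, known from the cytotoxic granules of lymphocytes, had 108, 82 and 45 counts in the mutants and 37, 37 and 48 counts in the wild types, and a log2 fold change of 0.71 (-0.25 to 1.66).

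The 8 syntaxins of endosomes, Golgi and endoplasmic reticulum all had intervals within 1.5-fold, with 3 positive. Stx12, of early and recycling endosomes, stood at 137, 170.5 and 168 CPM in the mutants against 179.9, 197 and 165 CPM in the wild types. Stx17, of autophagosomes, stood at 122, 146 and 148 CPM in the mutants against 118, 134 and 133 CPM in the wild types. Stx5a, of transport into the Golgi, stood at 94.4, 102 and 92.5 CPM in the mutants against 102, 96.8 and 93.1 CPM in the wild types. In each, the groups overlapped. Snap29 and Snap47, the SNAP-25 relatives of internal membranes, averaged 50.8 and 17.85 CPM in the mutants and 54.5 and 19.1 CPM in the wild types.

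**Figure D5:**
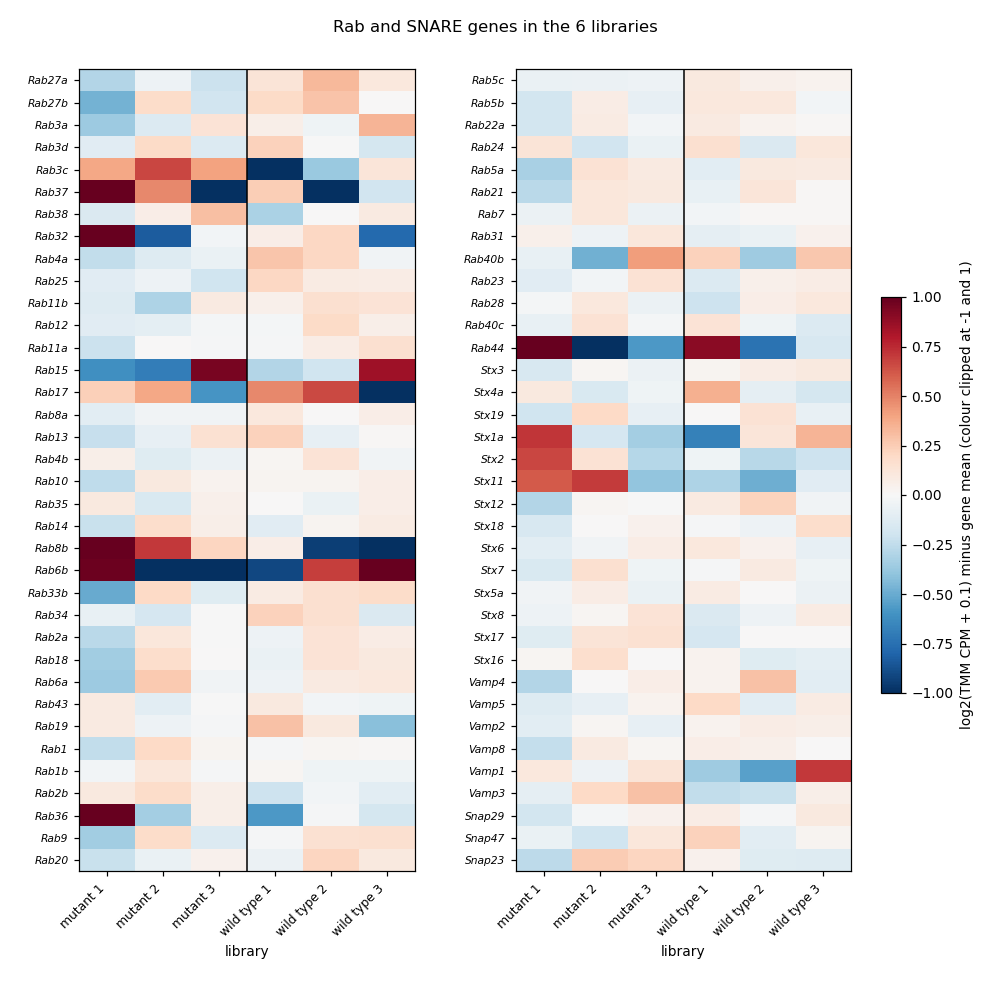
Level of each tested member averaging at least 1 CPM in either group, as log2(TMM CPM + 0.1) minus the gene's mean over the 6 libraries, in mutants 1 to 3 (left of the line) and wild types 1 to 3 (right), with colour clipped at -1 and 1. Pale rows are the majority, and mutant 1 is the lowest library in 34 of the 75 tested members. Strong colours stand in rows such as those of Rab15, Rab6b, Rab8b, Rab3c, Rab17, Rab32, Rab36, Rab37 and Rab44.

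Other genes of the secretory machinery, taken from lists separate from the members, gave no call in edgeR either. Of 12 further SNAREs 4 were positive (median -0.13), of 25 tested SNARE regulators 16 (median 0.04), of 45 tested Rab regulators 18 (median -0.03), of 9 exocyst subunits 6 (median 0.02) and of 15 genes of the Hermansky-Pudlak syndrome and BLOC complexes 7 (median -0.04). The smallest p-values among the SNAREs were those of Sec22b and Bet1, both of transport between endoplasmic reticulum and Golgi. Sec22b stood at 50.3, 49.2 and 54.1 CPM in the mutants against 67.4, 59 and 55.7 CPM in the wild types, a log2 fold change of -0.24 ± 0.10 (SE). Bet1 stood at 17.5, 20.1 and 22.4 CPM in the mutants against 26.9, 22.6 and 24.8 CPM in the wild types, a log2 fold change of -0.31 ± 0.12 (SE). For both, and for Gosr1 of the same list (-0.13 ± 0.08, SE), all mutants lay below all wild types. The rest of that list overlapped, and 11.7% of all tested genes had separate ranges. Bet1 was -0.22 without mutant 1, and Sec22b was -0.16 without wild type 1. Nsf, the ATPase that takes used SNARE complexes apart, stood at 51.1, 52.2 and 49.9 CPM in the mutants against 44.2, 43.98 and 45 CPM in the wild types, without overlap and with a log2 fold change of 0.20 ± 0.07 (SE). Vps33b, a Sec1-Munc18 protein of lysosome-related organelles, stood at 47.2, 46.04 and 43.8 CPM in the mutants against 56.4, 50.1 and 56.3 CPM in the wild types, again without overlap, with a log2 fold change of -0.25 ± 0.08 (SE). Sec22b, Bet1, Nsf, Vps33b and Sytl2 each had an edgeR adjusted p of 0.737.

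Rabgap1l, a GTPase-activating protein for Rabs, had a log2 fold change of 0.28 ± 0.13 (SE) with overlapping groups, or 0.17 without wild type 1. The exocyst subunits Exoc5 and Exoc6, of the complex that tethers vesicles to the plasma membrane, had 0.22 ± 0.14 and 0.18 ± 0.13 (SE), also with overlap; Exoc5 ran from 0.09 without mutant 2 to 0.34 without mutant 1, and Exoc6 was 0.06 without wild type 1. Bloc1s1 and Muted (the older symbol of Bloc1s5), subunits of the BLOC-1 complex of lysosome-related organelle formation, had -0.23 ± 0.10 and -0.29 ± 0.13 (SE), with all mutants below all wild types. In the same list Bloc1s3 was also lower without overlap, at -0.27 ± 0.18 (SE), but its ranges nearly touched. Mutant 1 had 8.41 CPM of it and wild type 3 had 8.43 CPM. Hps5 went the other way, at 0.16 ± 0.08 (SE), with all mutants above all wild types. There mutant 1, at 70.8 CPM, exceeded wild type 3, at 70.6 CPM, only slightly. The other genes of this list overlapped, and over all tested genes 11.7% had separate ranges. The Sec1-Munc18 protein Stxbp2, a partner of syntaxins in secretory cells, averaged 143 ± 9.38 CPM over the mutants and 139 ± 0.323 CPM over the wild types (SD, 3 libraries each), and the calcium sensor Syt7 averaged 123 ± 20.3 CPM over the mutants and 136 ± 12 CPM over the wild types (SD, 3 libraries each), with overlap in both.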

How the data were processed

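The authors deposited raw read counts, as whole numbers for each gene symbol, in a separate file for every library. Per the submitters' processing notes the build was mm9 and the tools included CASAVA and DESeq2; the aligner, counter, annotation and strand handling are not given in the sources used, so overlapping genes (22 members share annotated exon bases with another gene) and paralogs can share reads. Per the labels' protocols, all libraries were sequenced together on 1 flow cell.

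Groups came from the sample titles. Genes were filtered with filterByExpr by group (12899 kept), scaled by TMM and tested with edgeR 4.0.16 in R 4.3.3 (quasi-likelihood F-test, two-sided, fold changes as mutant over wild type). P-values were adjusted by Benjamini-Hochberg across every gene kept, and 0.05 was the threshold. The same fit gave standard errors and 95% intervals. Alternatives used DESeq2 1.42.0, limma 3.58.1 (voom with quality weights), DESeq2 size factors, no filter, at least 1 CPM in 3 libraries, the replicate number as a block and each library left out. Leaving out mutant 1 and wild type 2 together, and DESeq2 without mutant 1, were added after seeing the data. Marker sums are CPM of the library total, where 3 counts equal 0.0977 to 0.133 CPM; such floors cover counting error only.

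Exon lengths were the union of exons in the GENCODE M21 basic annotation (GRCm38), which is not the build counted. Rab1 has no length because its symbol is listed as a synonym of more than 1 RefSeq gene. Promoter sequences are from RefSeq (GRCm38.p6).

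Pairs of libraries within a group differed by chi-square of 19.3 to 80.6 per degree of freedom, far from sampling noise. A mutant and a wild type with the same number deviated together from the means of their groups (correlations 0.31, 0.21 and 0.17). Every pair was above 0.1, the rule used for pairing, which rests on the data alone. Correlations between libraries of different number are not given, and wild type 2 was female-type while mutant 2 was male-type. Whether the numbers pair the samples is therefore not settled, and the fit with the block is an alternative only. Values above come from the fit without a block unless the block is named. With the block, 6 of 75 members had an unadjusted edgeR p under 0.05, where 6.72% of all tested genes did. The lowest adjusted p of a member was then 0.541 (Rab8b).

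The members, role groups and lists were chosen with earlier results of these data known. Fold changes are given for 15 core members, the 5 members with the smallest p in each direction, members called by a tool over all genes and up to 2 genes of each other list. Rab27b, Rab6b, Rab15, Rab37 and Rab44, the Rab27 effectors beyond Sytl2, Unc13d, Gosr1, Bloc1s3, Hps5, Stxbp2 and Syt7 were chosen after their values were seen.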

Additional observations from a re-analysis of the deposited data

How the results depend on the processing

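No member passed the threshold under any alternative run. Over all genes, edgeR called 0 with all 6 libraries, and DESeq2 called 46, or 22 with mutant 1 left out. Leaving out each library in turn gave 0 to 1 called genes in edgeR, the 1 without wild type 3. The members' median log2 fold change ran from -0.10 to -0.019 when each library was left out, the least negative without mutant 1. It was -0.017 without mutant 1 and wild type 2 together and -0.016 in DESeq2 without mutant 1. The number of positive members was 25 to 31 with each library left out. Of 525 fold changes compared over 38 genes, 493 kept their sign, and 28 genes kept it under every alternative run. Only Sytl2 was called under an alternative (DESeq2). With the replicate block no call changed, and Rab7 (0.00 with all libraries) was at -0.0013. For genes near 0 or resting on 1 library the sign turned. Rab7 was -0.0090 with no filter and -0.027 in limma-voom, where Rab15 was 0.35 and Rab44 -0.46. Without mutant 1 and wild type 2, Rab3d was 0.0021, Rab32 -0.066, Rab5a 0.13, Vamp8 0.030 and Rab37 -0.21. In DESeq2 without mutant 1, Rab3d was 0.013, Rab32 -0.27, Rab5a 0.093, Vamp8 0.021, Rab15 0.13 and Rab44 -1.88. Over the 6 edgeR fits that each left out 1 library, Rab3d ran from -0.16 to 0.072, Rab32 from -0.27 to 0.96, Rab14 from -0.080 to 0.12, Rab5a from -0.14 to 0.089, Rab7 from -0.063 to 0.030, Stx4a from -0.18 to 0.10, Vamp8 from -0.15 to 0.018, Rab15 from -0.87 to 0.34 and Rab44 from -1.81 to 2.34. Where a fit left 2 libraries in a group, the shared spread was estimated over both groups. The cause of these differences was not tested beyond the libraries named. Low members (6 averaged under 1 CPM) were limited by their counts.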

Other observations

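Paralogs split their counts differently from library to library. Rab8b made up 24.1%, 16.1% and 11.9% of the counts of Rab8a and Rab8b together in mutants 1, 2 and 3, against 9.96%, 5.50% and 3.85% in wild types 1, 2 and 3, so the groups did not overlap. Rab3c made up 10.6%, 10.5% and 10.9% of the counts of Rab3d and Rab3c in the mutants, against 2.94%, 6.03% and 9.28% in the wild types; the mutants were nearly equal and the wild types were not. Rab6b made up 21.95%, 3.48% and 3.61% of the counts of Rab6a and Rab6b in the mutants, against 5.70%, 14.4% and 31.4% in the wild types, which overlapped. Rab27b, by contrast, held 35.9% to 42.8% of the Rab27 counts in the mutants and 37.15% to 39.9% in the wild types. How the counting treated reads that match both paralogs is not stated. No test was run on these shares.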
